A study of Mus musculus with 6 samples.

Results

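Macrophages present antigen to T cells and carry surface ligands and receptors that either restrain or help immune activation. The genes described here are 6 such transcripts, measured in peritoneal macrophages of mice with ID8 ovarian tumors after PBS or after nanoparticles carrying IRF5 mRNA (IRF5-NPs). They were taken by name from the 754 genes of the table: Cd274, Pdcd1lg2 and Havcr2 as the inhibitory genes, and Cd80, Cd86 and Cd40 as the costimulatory genes. All 6 had a probe. Cd274 fell 4.16-fold with IRF5-NPs and Havcr2 fell 2.31-fold, the latter close to the threshold of the test. No change passed the test in Cd80, Cd86, Cd40 or Pdcd1lg2, and the level of Pdcd1lg2 lay at the background of the assay.

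Cd274 encodes PD-L1 and Pdcd1lg2 encodes PD-L2, the ligands of the T cell receptor PD-1, which dampens T cell activation when bound. Havcr2 encodes TIM-3, an inhibitory receptor found on exhausted T cells and also on macrophages and dendritic cells. Cd80 and Cd86 encode the B7 ligands, which activate T cells through CD28 and inhibit them through CTLA-4. Cd40 encodes a receptor of the TNF receptor family through which T cells bearing CD40 ligand activate macrophages and dendritic cells. Tumor macrophages commonly carry PD-L1, which is induced by interferon gamma. IRF5 is a transcription factor of the interferon regulatory family that favors inflammatory macrophage states.

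The samples were sorted F4/80+ CD11b+ cells from peritoneal lavage of adult C57BL/6J mice, which had all been injected with ID8 cells, a mouse ovarian cancer line, 7 weeks before treatment. The PBS group (3 samples) received 2 i.p. injections of PBS on days 1 and 5. The IRF5-NP group (3 samples) received 2 i.p. injections of nanoparticles on the same days, with 30 µg of mIRF5 mRNA in each. The study's methods add that the particles carry codon-optimized mRNA for IRF5 and for IKKβ, a kinase that activates IRF5, in a coat of Di-mannose that binds CD206. For this tumor model the methods name female albino B6 mice (C57BL/6J-Tyr<c-2J>) and ID8 cells made to express VEGF, where the sample labels name C57BL/6J mice and ID8 cells. The methods also give a larger mRNA dose and a shorter time from inoculation than the labels. No group given empty particles or particles with a control mRNA was analysed here, so an effect of the particle and an effect of its mRNA cannot be told apart. The labels do not say whether samples of a group came from separate mice, so the p-values measure the spread between these samples, which may be technical. The RNA is from bulk sorted cells, in which fewer cells of a type and less RNA per cell cannot be told apart.

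The NanoString nCounter assay counts a color-coded probe per transcript without amplification, and each gene value is a normalized count. Since each gene has its own probe, levels are compared between samples and not between genes. The totals were 683472 to 1830318 counts per sample, and the background, set at 2 SD above the mean of the 8 negative control probes, was 25.6 to 37.8 normalized counts in 5 samples and 79.4 in IRF5-NP replicate 3. PBS replicates 2 and 3 did not differ beyond the sampling noise of their counts (chi-square of 1.07 per degree of freedom, p = 0.0782) and were counted as 1 sample, leaving 2 PBS samples and 3 IRF5-NP samples. PBS replicate 1 and IRF5-NP replicate 1 stood apart from the others of their groups, with chi-squares per degree of freedom of at least 158 and 54.0, against 7.07 between IRF5-NP replicates 2 and 3. The macrophage markers were present, with 8 of 8 measured markers above background in all samples. Changes are log2 fold changes of IRF5-NP over PBS by limma, adjusted over all 754 genes, with a threshold of 0.05.

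The sequences before the start sites of the genes that fell, Cd274 and Havcr2, and of Cd80, whose change did not pass the test, are shown so that their letters can be set beside the values. They are the 250 bases upstream of the start site from RefSeq, build GRCm38.p6, all on the plus strand, at chr19:29367188-29367437 for Cd274, chr11:46454681-46454930 for Havcr2 and chr16:38458683-38458932 for Cd80. An entry was matched for 4 of the 6 genes, with Cd86 and Cd40 not matched. The letters searched on both strands were GAAANNGAA, the tandem GAA core of interferon response elements, TTCNNNGAA, the gamma-activated site, and the kappa-B site. Capitals mark a match.
Cd274: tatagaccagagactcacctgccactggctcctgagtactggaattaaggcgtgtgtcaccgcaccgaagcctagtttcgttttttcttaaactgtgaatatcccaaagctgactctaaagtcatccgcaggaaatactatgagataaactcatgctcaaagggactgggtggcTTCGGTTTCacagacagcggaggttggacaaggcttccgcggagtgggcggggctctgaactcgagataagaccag
Havcr2: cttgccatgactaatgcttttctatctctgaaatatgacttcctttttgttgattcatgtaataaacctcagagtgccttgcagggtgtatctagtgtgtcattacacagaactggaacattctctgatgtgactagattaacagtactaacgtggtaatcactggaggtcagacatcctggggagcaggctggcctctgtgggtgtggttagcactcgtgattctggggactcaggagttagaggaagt
Cd80: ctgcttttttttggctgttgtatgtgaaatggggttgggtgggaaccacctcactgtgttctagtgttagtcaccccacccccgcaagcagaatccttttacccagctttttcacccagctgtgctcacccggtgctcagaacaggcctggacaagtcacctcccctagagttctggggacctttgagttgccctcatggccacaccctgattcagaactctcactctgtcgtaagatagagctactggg
The Cd274 sequence held 1 match to GAAANNGAA, on the minus strand at bases -76 to -68 from the start site, which reads TTCGGTTTC on the strand printed. The Havcr2 and Cd80 sequences held no match to any of the 3 motifs. Pdcd1lg2 held a kappa-B match, GGGGAATCCC, at bases -244 to -235, which reads as a match on both strands. Of 32851 promoter sequences of 250 bases, 7.13% held the first motif, 7.02% the second and 7.25% the kappa-B site. A match describes letters and not binding.

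Among the inhibitory genes, Cd274 had 2494, 2718 and 2660 normalized counts in PBS replicates 1, 2 and 3, and 505, 782 and 608 in IRF5-NP replicates 1, 2 and 3. Every IRF5-NP sample lay far below every PBS sample, with a wide gap between the groups. The PBS mean was 2591 ± 138 normalized counts (SD, n = 2), and the IRF5-NP mean was 632 ± 140 (SD, n = 3). The log2 fold change was -2.06 (standard error 0.24, 95% interval -2.61 to -1.51, adjusted p = 0.00193 by limma), a fall of 4.16-fold (95% interval 2.84 to 6.09). It ranked 26 of 754 genes from the lowest log2 fold change up, and 12 of 754 by p. Its smallest margin over the background was 7.66 times, in IRF5-NP replicate 3, where the value rested on 234 counts.

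Havcr2 had 357, 390 and 363 normalized counts in PBS replicates 1, 2 and 3, and 119, 157 and 210 in IRF5-NP replicates 1, 2 and 3. The groups did not overlap, and the IRF5-NP samples were more spread than the PBS samples. Havcr2 had a log2 fold change of -1.21 (standard error 0.28, 95% interval -1.86 to -0.56, adjusted p = 0.0360 by limma), for a PBS mean of 366 ± 13.8 normalized counts (SD, n = 2) and an IRF5-NP mean of 162 ± 46.0 (SD, n = 3). Leaving out PBS replicate 1 gave an adjusted p by limma of 0.121, and leaving out IRF5-NP replicate 1, 2 or 3 gave 0.0613, 0.0860 or 0.0650. Its log2 fold change lay between -1.42 and -0.97 under all 16 alternatives fitted, of which 6 kept the call. The highest IRF5-NP value, in replicate 3, was 2.65 times the normalized background of that sample and rested on 81 counts. The negative controls of that sample averaged 17.25 counts, within the 15.125 to 21.25 of the other samples. Its normalized background was high through its scaling factor of 2.60.

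Pdcd1lg2 had 20.7, 32.1 and 35.1 normalized counts in PBS replicates 1, 2 and 3, and 18.1, 14.3 and 33.8 in IRF5-NP replicates 1, 2 and 3. These rest on 13 to 31 counts per sample, and only PBS replicates 2 and 3 exceeded the background. Pdcd1lg2 had a log2 fold change of -0.34 (95% interval -1.41 to 0.73, adjusted p = 0.723 by limma), so that a change in PD-L2 mRNA was not detectable at this depth.

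**Figure D1:**
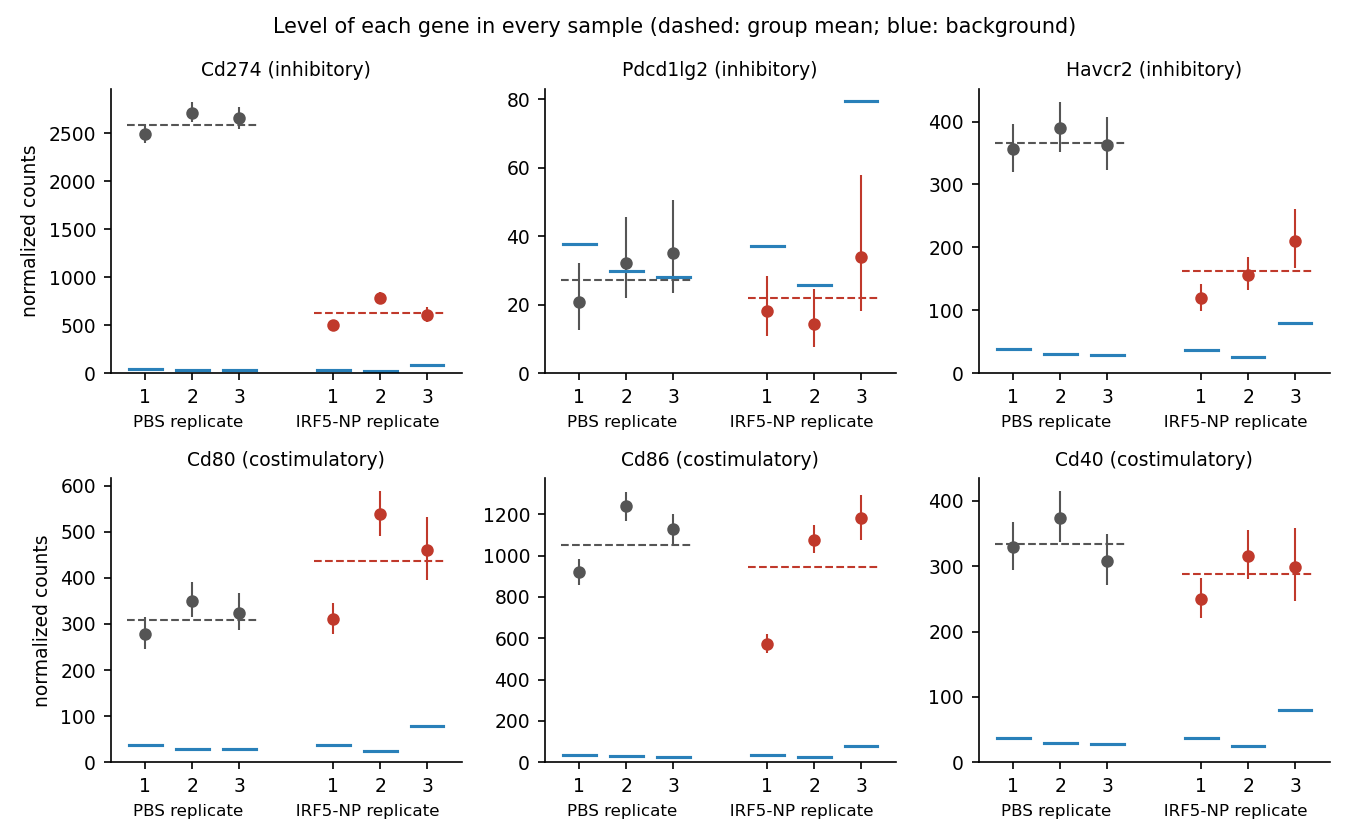
Normalized counts (y axis, from 0, its scale differing between panels) of the 6 genes in each of the 3 PBS samples (grey) and 3 IRF5-NP samples (red). Points are samples, vertical bars are 95% Poisson intervals of the counts, dashed lines are group means with PBS replicates 2 and 3 counted as 1 sample, and blue lines are the background of each sample. The Cd274 and Havcr2 groups do not overlap, the Cd80, Cd86 and Cd40 groups do, and Pdcd1lg2 lies at the background.

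The costimulatory genes were all above background in all 6 samples. Cd80 had 279, 351 and 324 normalized counts in PBS replicates 1, 2 and 3, and 310, 538 and 460 in IRF5-NP replicates 1, 2 and 3. IRF5-NP replicates 2 and 3 were above all PBS samples and IRF5-NP replicate 1 was within them. The log2 fold change was 0.47 (standard error 0.28, 95% interval -0.17 to 1.11, adjusted p = 0.368 by limma), for a PBS mean of 308 ± 41.2 normalized counts (SD, n = 2) and an IRF5-NP mean of 436 ± 116 (SD, n = 3). The interval spans 0, and its upper end is a rise of 2.16-fold. Cd80 was above 0 in all 16 alternatives and passed the test in none.

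Cd86 had 919, 1237 and 1127 normalized counts in PBS replicates 1, 2 and 3, and 571, 1077 and 1180 in IRF5-NP replicates 1, 2 and 3. IRF5-NP replicate 1 was the lowest of the 6 samples, and the other IRF5-NP samples lay within the PBS range. The log2 fold change was -0.21 (standard error 0.33, 95% interval -0.99 to 0.56, adjusted p = 0.771 by limma), and without IRF5-NP replicate 1 it was 0.11. With the median over all genes set equal it was 0.026, and with quantile normalization 0.035, so that its sign was not settled.

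Cd40 had 329, 374 and 308 normalized counts in PBS replicates 1, 2 and 3, and 249, 316 and 299 in IRF5-NP replicates 1, 2 and 3. The groups overlapped, and Cd40 varied least between samples among the 5 genes above background. The log2 fold change was -0.22 (standard error 0.21, 95% interval -0.71 to 0.28, adjusted p = 0.620 by limma), and with the median over all genes set equal it was 0.018. The lower end of the interval is a fall of 1.64-fold, so that a change of the size seen in Cd274 lies outside it.

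**Figure D2:**
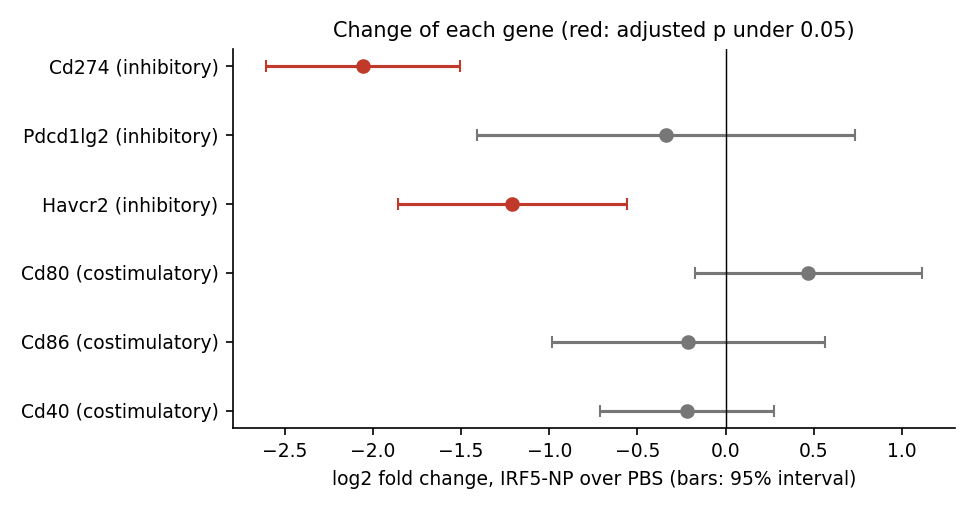
Log2 fold change of IRF5-NP over PBS (x axis) for the 6 genes, as limma estimates (points) with 95% intervals (bars). Red marks an adjusted p under 0.05, which Cd274 (-2.06) and Havcr2 (-1.21) had. The intervals of the other 4 genes span 0.

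Of the 6 genes 2 were lower and 0 higher by limma at an adjusted p under 0.05, and by an unadjusted p under 0.05 the same counts were 2 and 0. Over all genes 7.03% were lower (53 of 754) and 2.52% higher (19 of 754). By an unadjusted limma p under 0.05, 118 of the 754 were lower and 73 higher. The groups did not overlap, with IRF5-NP lower, for Cd274 and Havcr2, against 20.4% of all genes, and for 0 of the 6 with IRF5-NP higher, against 17.0%. The median log2 fold change was -1.21 over the inhibitory genes, -0.21 over the costimulatory genes and -0.03 over all genes. The costimulatory median turned above 0 with the median over all genes set equal (0.026) and with quantile normalization (0.035), and the inhibitory median stayed below 0 with both (-0.97 and -1.003). Setting the median of each sample equal moved the median log2 fold change of all genes by 0.24 and gave 42 genes higher and 36 lower, and Cd274 still had a log2 fold change of -1.82. The genes were chosen with results of these data known, so the counts describe them and no test was made over the list.

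The ratio of an inhibitory to a costimulatory transcript within a sample was taken after adding a pseudocount of 1 to each value. It depends little on the scaling of that sample, though more for Pdcd1lg2, which lies at the background. Its size depends on the probes, and only its differences between samples are described. The ratio of Cd274 to Cd80 was 8.91, 7.73 and 8.18 in PBS replicates 1, 2 and 3, and 1.63, 1.45 and 1.32 in IRF5-NP replicates 1, 2 and 3. Within each group the ratio was nearly constant, although both genes were lower in IRF5-NP replicate 1 than in replicates 2 and 3. The mean log2 ratio was 3.07 ± 0.12 (SD, n = 2) in the PBS samples and 0.55 ± 0.15 (SD, n = 3) in the IRF5-NP samples, a difference of 5.76-fold. The ratio of Cd274 to Cd86 was 2.71, 2.20 and 2.36 in the PBS samples and 0.885, 0.726 and 0.516 in the IRF5-NP samples, a difference of 3.59-fold. That of Cd274 to Cd40 was 7.57, 7.24 and 8.61 against 2.02, 2.47 and 2.03, a difference of 3.57-fold. These ratios were not tested. For Havcr2 the differences in ratio were 3.21-fold over Cd80, 2.00-fold over Cd86 and 1.99-fold over Cd40, with no overlap of the groups in any of these.

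**Figure D3:**
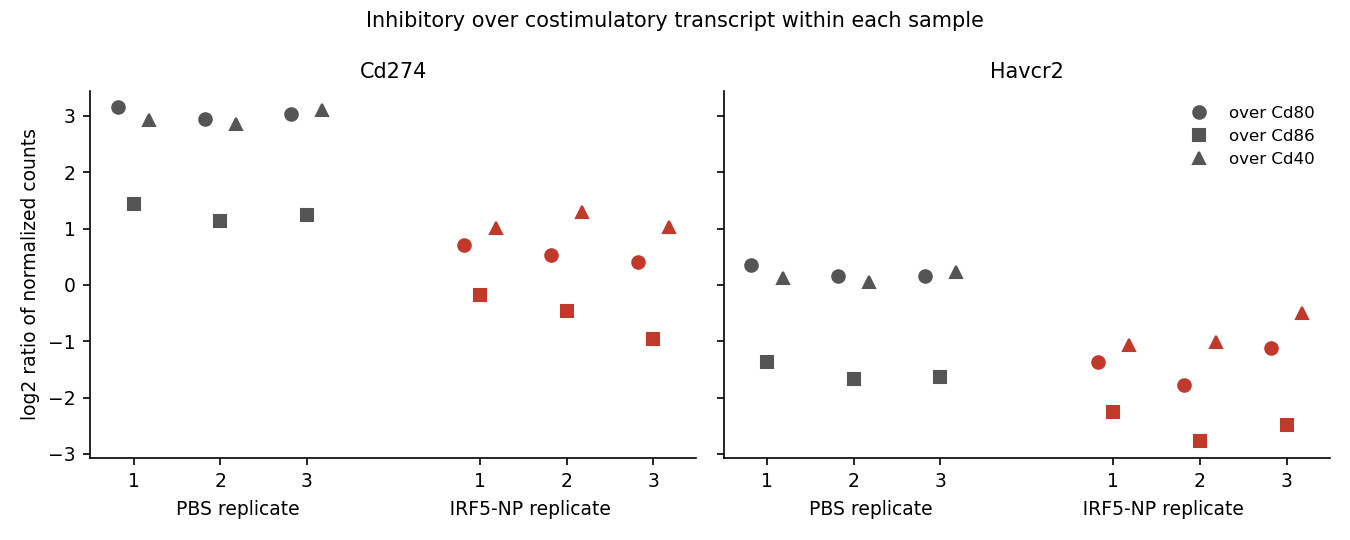
Log2 ratio of normalized counts (y axis) of Cd274 (left) and Havcr2 (right) over Cd80 (circles), Cd86 (squares) and Cd40 (triangles) in each PBS (grey) and IRF5-NP (red) sample. Every IRF5-NP point lies below every PBS point of the same ratio. The height of a ratio depends on its probes, so heights are not compared between ratios.

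The mean log2 value of the 3 inhibitory genes minus that of the 3 costimulatory genes was -0.71, -0.74 and -0.57 in the PBS samples and -1.75, -2.20 and -1.73 in the IRF5-NP samples. The difference of the group means was -1.21. Pdcd1lg2 takes the same weight in this score as Cd274 although it lies at the background. Without it, an alternative chosen after seeing the data, the score was 1.10, 0.91 and 1.02 with PBS and -0.52, -0.70 and -0.61 with IRF5-NPs, a difference of -1.65. Of the 9 ratios, 7 did not overlap between the groups, and those of Pdcd1lg2 to Cd86 and to Cd40 did. The 7 share their genes, and Cd274 and Havcr2 did not overlap on their own, so they are not separate observations. The share of all gene pairs without overlap was not computed.

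The transcripts of the binding partners were mostly near background in these sorted cells. Of 8 listed receptors and ligands of the 6 genes 6 were measured. Pdcd1, which encodes PD-1, had 74.7, 33.1 and 45.1 normalized counts with PBS and 55.2, 47.4 and 52.0 with IRF5-NPs, above background in 5 of 6 samples, with a log2 fold change of -0.06 (adjusted p = 0.935 by limma). Cd28 was above background in 1 sample (log2 fold change 0.23, adjusted p = 0.771 by limma), and Ctla4 (-0.75, adjusted p = 0.337 by limma) and Cd40lg (0.68, adjusted p = 0.407 by limma) in none. Hmgb1, an alarmin and a TIM-3 ligand, had a PBS mean of 755 ± 91.4 normalized counts (SD, n = 2) and an IRF5-NP mean of 839 ± 86.6 (SD, n = 3), with a log2 fold change of 0.15 (adjusted p = 0.720 by limma).

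Ceacam1, an adhesion molecule and a described TIM-3 ligand, rose. It had 373, 359 and 333 normalized counts in the PBS samples and 705, 1110 and 896 in the IRF5-NP samples, without overlap. Its log2 fold change was 1.30 with a standard error of 0.24 (adjusted p = 0.0166 by limma).

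Of the 63 measured genes in the 7 lists of related genes, 7 fell and 2 rose, and their median log2 fold change was -0.31 against -0.03 over all genes, or -0.08 against 0.21 with the median over all genes set equal. These counts stand beside 7.03% lower and 2.52% higher over all genes, and with that scaling they were 4 lower and 3 higher. All 9 genes kept their direction under 16 alternatives. Of these 9 calls, 6 were lost without PBS replicate 1, 5 without IRF5-NP replicate 1, 5 without IRF5-NP replicate 2, and 8, all but that of Cxcl9, without IRF5-NP replicate 3. Of 4 other B7 and butyrophilin-like ligands 0 passed by limma (1 at an unadjusted p under 0.05), with a median of -0.07. It was 0.17 with the median over all genes set equal and -0.01 with quantile normalization. The median over all genes was 0.21 and 0.11 with these scalings. Icosl, the ligand of the costimulatory receptor ICOS, had 318, 314 and 309 normalized counts with PBS and 146, 184 and 187 with IRF5-NPs, for a log2 fold change of -0.88 with a limma adjusted p of 0.0503. Its groups did not overlap. Of 8 other TNF superfamily costimulation genes 0 passed by limma, also at an unadjusted p under 0.05. Their median was -0.20, or 0.04 with the median over all genes set equal and -0.20 with quantile normalization. Of these genes 3, Tnfsf4, Cd70 and Cd27, were below background in all samples. Of 13 other inhibitory receptors and ligands of myeloid cells 1 passed. Their median was -0.30, or -0.06 with the median over all genes set equal and 0.03 with quantile normalization. The gene that passed was Nectin2, a ligand of TIGIT, with 583, 614 and 567 normalized counts with PBS and 1180, 1072 and 917 with IRF5-NPs. It rose by 0.84 on the log2 scale with a standard error of 0.20 (adjusted p = 0.0408 by limma). By an unadjusted limma p under 0.05, 2 of the 13 were lower and 1 higher. Those lower were Il10 (log2 fold change -1.60, adjusted p = 0.0647 by limma) and Lgals3 (-0.81, adjusted p = 0.0881 by limma), both without overlap. Il10 exceeded the background in 3 samples.

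Of 6 adhesion and SLAM genes 2 fell, against 1 lower and 1 higher both with the median over all genes set equal and with quantile normalization. Cd83, a surface protein of mature dendritic cells and activated macrophages, had 1744, 903 and 880 normalized counts with PBS and 331, 566 and 473 with IRF5-NPs, for a log2 fold change of -1.48 with a standard error of 0.34 (adjusted p = 0.0361 by limma). Itgal, the alpha chain of the integrin LFA-1, had 401, 714 and 745 with PBS and 146, 152 and 166 with IRF5-NPs (log2 fold change -1.80, standard error 0.29, adjusted p = 0.00844 by limma). Both genes differed strongly within the PBS group, Cd83 being highest and Itgal lowest in PBS replicate 1, and neither overlapped between the groups. With these scalings Cd83 had an adjusted p of 0.0618 and 0.0759 by limma. Itgb2, the beta chain that pairs with Itgal, had 5499, 8075 and 8019 normalized counts with PBS and 10421, 17693 and 17446 with IRF5-NPs, for a log2 fold change of 1.15 (adjusted p = 0.0715 by limma). Vcam1 had 894, 430 and 423 with PBS and 263, 288 and 275 with IRF5-NPs (log2 fold change -1.16, adjusted p = 0.0583 by limma).

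Of 10 CD40 signalling genes 2 fell, and 9 of 10 had a log2 fold change below 0, against 6 of 10 with the median over all genes set equal. Nfkbia, which encodes the NF-kappa-B inhibitor alpha, had 3109, 1499 and 1448 normalized counts with PBS and 817, 709 and 780 with IRF5-NPs (log2 fold change -1.48, standard error 0.31, adjusted p = 0.0293 by limma). Tnfaip3, which encodes the deubiquitinase A20, had 2242, 713 and 642 with PBS and 221, 237 and 252 with IRF5-NPs (log2 fold change -2.38, standard error 0.45, adjusted p = 0.0168 by limma). Both encode feedback inhibitors of NF-kappa-B signalling that are themselves its targets. PBS replicate 1 was the highest sample of both genes, and the IRF5-NP samples lay close together.

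Of 17 interferon gamma pathway genes 3 fell and 0 rose by limma, with a median log2 fold change of -0.49, against 1 lower and a median of -0.25 with either scaling. Cxcl9, a chemokine induced by interferon gamma, had 381, 877 and 910 normalized counts with PBS and 60.9, 76.1 and 85.8 with IRF5-NPs (log2 fold change -2.97, standard error 0.37, adjusted p = 0.00293 by limma). Socs3, a feedback inhibitor of cytokine signalling, fell by 1.03 on the log2 scale (adjusted p = 0.0380 by limma), and Tap1, the peptide transporter for MHC class I, by 0.79 (adjusted p = 0.0459 by limma). Their adjusted p by limma with the median over all genes set equal was 0.0820 and 0.115, and with quantile normalization 0.118 and 0.121. The interferon gamma gene Ifng itself was below background in all samples. Irf1, a transcription factor induced by interferon gamma, had a log2 fold change of 0.40 (adjusted p = 0.531 by limma). Of the 17 genes 15 had a log2 fold change below 0, and by an unadjusted limma p under 0.05, 6 were lower and 0 higher. Among these were Cxcl10 (-1.59, adjusted p = 0.0934 by limma), Nos2 (-1.48, adjusted p = 0.0696 by limma) and Fcgr1 (-0.86, adjusted p = 0.0664 by limma), all without overlap.

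**Figure D4:**
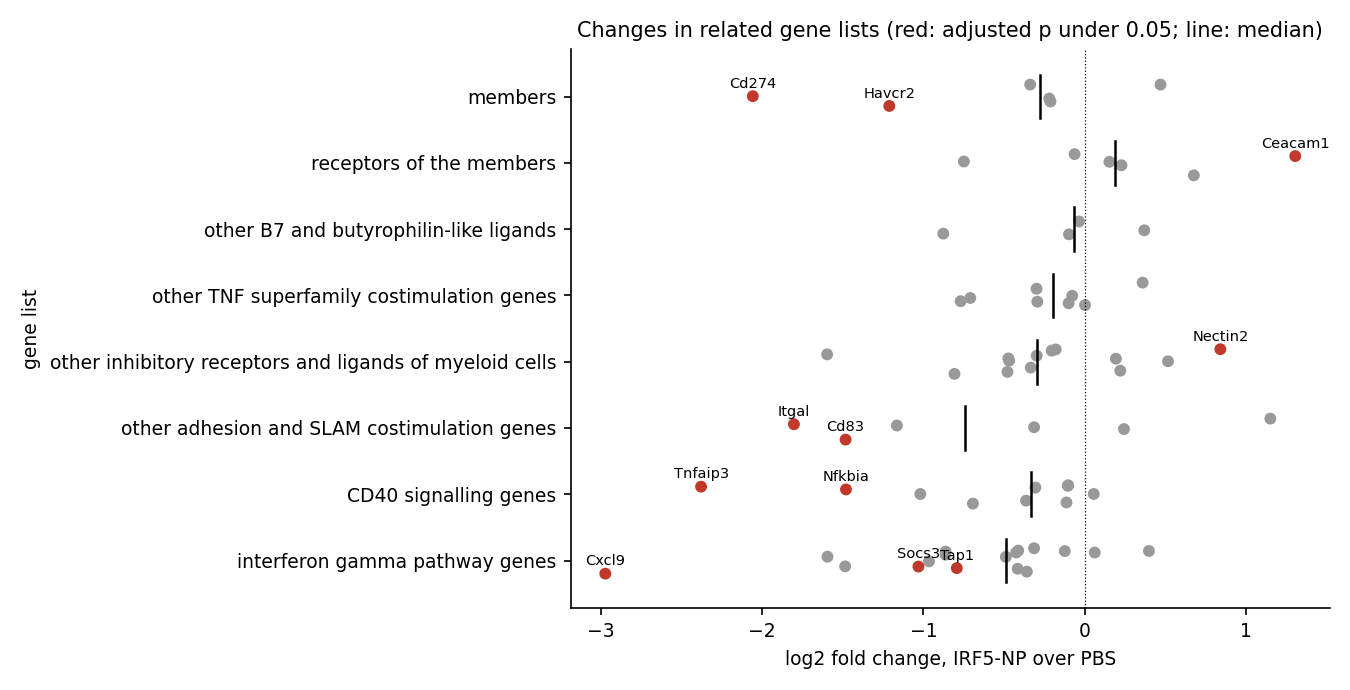
Log2 fold change of IRF5-NP over PBS (x axis) of each measured gene in the 6 described genes (members, top) and in the 7 lists of related genes. Points are genes, red with a name where the adjusted p is under 0.05, and black lines are list medians, which run from -0.74 for the adhesion and SLAM genes to 0.19 for the receptors and ligands of the members. The vertical spread of points has no meaning.

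The genes whose profile over the 5 samples was most like that of each gene were found among 481 others above background in all samples, by the root mean square difference of log2 values centred on their means. For Cd274 they were H2-DMb1 (0.304) and H2-DMa (0.312), which load peptide on MHC class II, and Tlr9 (0.319), a receptor for unmethylated DNA. H2-DMb1 had 1523, 1940 and 1814 normalized counts with PBS and 483, 420 and 520 with IRF5-NPs. H2-DMa had 2423, 2821 and 2970 with PBS and 826, 941 and 1006 with IRF5-NPs, and Tlr9 had 231, 209 and 197 against 66.6, 89.3 and 80.6. Their log2 fold changes were -1.84, -1.52 and -1.46. Since these genes were picked for their likeness to Cd274 over the same samples, a lower level with IRF5-NPs was fixed by the choice and is a description.

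For Havcr2 the nearest profiles were Cxcl16 (0.183), Col14a1 (0.193) and Gpr65 (0.200). Cxcl16, a transmembrane chemokine, had 3724, 3391 and 3364 normalized counts with PBS and 1364, 1929 and 1884 with IRF5-NPs (log2 fold change -1.06). For Cd80 they were Cd244 (0.0740), Gnai3 (0.0886) and Csf1 (0.0913), for Cd86 they were Cd14 (0.166), Tnfsf10 (0.169) and Tlr4 (0.178), and for Cd40 they were Ikzf1 (0.0594), Txn1 (0.0598) and Smad2 (0.0613). Tlr4 and Cd14, which together sense lipopolysaccharide, were both lowest in IRF5-NP replicate 1, as Cd86 was. Here too the genes were picked for likeness over the same samples, so shared levels follow from the choice and are a description.

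Some markers of cell types and of a macrophage subset differed between the groups, and others did not. The part of cell composition in the changes of Cd274 and Havcr2 was not tested. Resident large peritoneal macrophage markers had summed levels of 23856 to 50952 normalized counts in the PBS samples and 79018 to 120889 in the IRF5-NP samples. Of the 6 measured, Timd4, Selp and Cxcl13 rose and 0 fell by limma, and all 6 were higher at an unadjusted p under 0.05. With the median over all genes set equal 5 of the 6 were called higher. Dendritic cells commonly carry all 6 described molecules, and 8 of 14 of their markers were measured, with summed levels of 470 to 531 normalized counts with PBS and 226 to 302 with IRF5-NPs. Of these, Itgax fell (log2 fold change -1.88, adjusted p = 0.00589 by limma). Xcr1 and Dpp4 were below background in all samples, and Flt3 and Clec9a were above it in 3 and 2 samples. Batf3 was above it in 4 samples, and Ccr7, Kit and Itgax in 5.

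Of 8 macrophage markers 1 fell, Mertk, with summed levels of 73548 to 80487 normalized counts with PBS and 55386 to 112546 with IRF5-NPs. Of 5 monocyte markers 0 passed by limma (3 at an unadjusted p under 0.05), with sums of 5480 to 7213 and 5881 to 7419. Of 10 neutrophil markers Mmp8 fell and Csf3r rose, with sums of 2320 to 7276 with PBS, the highest in PBS replicate 1, and 1661 to 2655 with IRF5-NPs. Mmp8 exceeded the background in 4 samples. Of 10 mast cell and eosinophil markers Cpa3 and Hdc rose, with sums of 309 to 428 and 636 to 1032, and 5 of the 10 were below background in all samples. Cpa3 exceeded the background in 2 samples. Ms4a1, of 2 measured B cell markers, rose, with sums of 25.03 to 36.3 and 62.8 to 101, and it exceeded the background in 2 samples. Of 2 NK cell markers 0 passed by limma, also at an unadjusted p under 0.05, with sums of 69.5 to 104 and 59.5 to 91.0. Cdh1, the measured tumor and mesothelial marker, fell, with 80.9 to 97.6 normalized counts in the PBS samples and 35.2 to 40.8 in the IRF5-NP samples. It exceeded the background in 4 samples. No T cell marker of the list was measured.

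The probe for Irf5 gave 2573, 1991 and 1929 normalized counts with PBS and 1960, 2358 and 2294 with IRF5-NPs, with overlapping groups and a log2 fold change of -0.03 (95% interval -0.55 to 0.48, adjusted p = 0.947 by limma). Whether this probe binds the codon-optimized mRNA was not tested, so it does not check the delivery.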

How the data were processed

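Values were analysed for 6 samples of sorted peritoneal macrophages, 3 with PBS and 3 with IRF5-NPs, as the sample labels group them. The deposited signal of a gene is a normalized nCounter count on a linear scale. Per the study's methods, which state it for cultured macrophages, the authors checked raw data with NanoStringQCPro and scaled each sample by its housekeeping genes in nSolver. The values were deposited without the log2 transformation that the methods describe. They fill 768 rows, of which 754 are genes, 8 negative controls and 6 positive controls. The gene values of each sample were whole multiples of 1 factor within 0.01 normalized counts. The factor was 0.952 to 1.25 in 5 samples and 2.60 in IRF5-NP replicate 3. Gene values divided by it gave the counts used for depth and the chi-square comparison of samples. The negative control values were taken as raw counts and multiplied by it to give the background. Poisson intervals (95%) cover counting error only.

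Log2 values with a pseudocount of 1 were compared in limma 3.58.1 (R 4.3.3; lmFit, then eBayes with its trend option), two-sided, with Benjamini-Hochberg adjustment over 754 genes. PBS replicates 2 and 3 were averaged on the log2 scale. The genes described and all gene lists were chosen with earlier results of these data known. Named genes were the 6 genes described, their measured receptors and ligands, the genes of the other 6 lists past the threshold, the marker genes past it, and the 3 genes most alike to each of the 6 that was above background in all samples. Icosl, Itgb2, Vcam1, Il10, Lgals3, Cxcl10, Nos2, Fcgr1, Irf1, Ifng and the Irf5 probe were added after their values were seen. So were markers and list genes named for their level relative to the background. Gene symbols matched RefSeq by symbol for 744 genes and by synonym for 9, among them Cd244. Replicate numbers were checked for pairing by the correlation across 560 genes of deviations from group means. It was 0.22, 0.25 and 0.10 for numbers 1, 2 and 3, and -0.24 to 0.21 for unlike numbers. Since it was not above 0.1 for all equal numbers, the main test used no block. The check cannot settle pairing, because PBS replicates 2 and 3 did not differ beyond sampling noise. Python 3.11.15 with pandas 2.3.3, scipy 1.17.1 and matplotlib 3.10.9 was used for tables and figures.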

Additional observations from a re-analysis of the deposited data

How the results depend on the processing

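Cd274 kept its direction under all 16 alternatives fitted and its call under 15. The exception was the methods' t-test, with an adjusted p of 0.118 and a log2 fold change of -2.06. This t-test was adjusted here by Benjamini-Hochberg, with PBS replicates 2 and 3 counted as 1 sample. The methods adjust it by Benjamini-Yekutieli, which was used here only with limma, so the full procedure of the methods was not run. Havcr2 kept its direction and lost its call with the background subtracted (-1.39), the median over all genes set equal (-0.97), quantile normalization (-1.003), no mean-variance trend, the methods' t-test and Benjamini-Yekutieli adjustment (all -1.21), and without PBS replicate 1 or any 1 of the IRF5-NP replicates. It kept its call without PBS replicate 2 or 3, and the values without single replicates were -1.42 to -1.01. Cd86 changed sign with equal medians (0.026), quantile normalization (0.035) and without a replicate (-0.41 to 0.11), and Cd40 with equal medians (0.018). The inhibitory minus costimulatory difference was -1.63 with the background subtracted and -1.65 without Pdcd1lg2. Of the 6 genes described, those called lower numbered 1 with the background subtracted, equal medians, quantile normalization, no trend or Benjamini-Yekutieli, 0 with the methods' t-test (2 at an unadjusted p under 0.05) and 1 to 2 without single replicates.

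Panel genes lower and higher numbered 84 and 37 with 6 separate samples, 20 and 4 with the background subtracted, 33 and 8 without the trend, 19 and 2 with Benjamini-Yekutieli, and 19 to 59 and 2 to 24 without single replicates. With equal medians 42 were higher, and 35 after quantile normalization. The methods' t-test gave 0 and 0 (125 genes at an unadjusted p under 0.05, against 191 by limma). Related genes lower numbered 12 with 6 separate samples, 1 with the background subtracted, 4 with equal medians, 3 with quantile normalization, 3 without the trend, 0 with the methods' t-test, 1 with Benjamini-Yekutieli and 1 to 8 without single replicates. Related genes higher numbered 1 without the trend, 0 with the background subtracted, the methods' t-test and Benjamini-Yekutieli, and 0 to 2 without single replicates. With a replicate block on the 6 separate samples 83 panel genes were lower and 52 higher, and the block changed no call of the 6 genes. The cause of these changes was not tested. Tests for counts planned on recovered counts, by edgeR and DESeq2, were not run, so no call here was set beside a count model.

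Quantile normalization moved the median log2 fold change of all genes by 0.13. At this depth 124 of 754 genes lay below background in all samples, and Pdcd1lg2 had at most 31 counts in a sample.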
